A study of Mus musculus with 4 samples.

Results

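The genes that encode collagen chains were followed in whole mouse kidney, as the 43 rows of the deposited expression table, out of 32176 rows, whose name has the form of a collagen chain symbol (Col, the number of the collagen type, a, and the number of the chain). RNA-seq libraries came from kidneys with autosomal dominant polycystic kidney disease (ADPKD), in which fluid-filled cysts grow from the tubules, and from wild-type (WT) kidneys, with 2 libraries in each group. The ADPKD genotype is labelled Pkd1fl/fl; Cre/Esr1+, that is a floxed Pkd1 gene together with a Cre recombinase that tamoxifen activates, and the WT genotype wildtype. The labels of all 4 samples, WT included, state tamoxifen at 10 mg/kg on postnatal day 10. The promoter that drives Cre, the cells in which the gene is deleted and the age at which the kidneys were taken are not given in the sources used here. Whether each library is a separate animal is not stated. The 2 ADPKD libraries differ in sex-linked transcripts, given below, and so cannot come from the same animal. The spread that enters the p-values may thus be technical between the WT libraries, and in ADPKD it includes a difference of sex.

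Collagens are secreted proteins in which chains wind around each other as a triple helix. The fibrillar types I, III and V form the cable-like fibrils of connective tissue and of scars. Type IV chains build the sheet-like network of basement membranes, the layer on which tubule cells, podocytes and endothelial cells rest. In the kidney the chains of Col4a1 and Col4a2 occur in most basement membranes. Those of Col4a3, Col4a4 and Col4a5 form the network of the glomerular filter, and loss of any of them causes Alport syndrome in humans. Other classes coat or link fibrils (the FACIT collagens), form beaded filaments (type VI), or carry domains that are released from the chain, such as endostatin from Col18a1.

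The helix requires a glycine at the same place in each triplet of residues, and this repeat can be read in the coding sequences of all 43 members (longest coding transcript per gene, GENCODE mouse release M21, GRCm38) as an unbroken series of triplets of codons that each start with a glycine codon (GGN). In the 11 fibrillar genes the longest unbroken run held between 216 and 344 such triplets. The longest was that of Col3a1, and Col27a1 had 217. In the 6 type IV genes the longest run held 39 to 66 triplets, and the repeat was broken into 22 to 27 runs of at least 5 triplets. Col12a1, a FACIT chain, had 8.22% of its 3065 codons in such runs, so most of it codes for other domains.

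The libraries held between 18001308 and 19955120 reads assigned to genes. Values are FPKM, read counts scaled by exon length and library depth, so levels can be compared between genes per length. Of the 43 members 26 reached the filter, an average of 0.5 FPKM or more over the 4 libraries, and were tested. These held between 190 and 58067 reads each over the 4 libraries. The floxed gene Pkd1 measured 1.97 and 2.12 FPKM in WT (replicates 1 and 2) against 2.48 and 2.08 FPKM in ADPKD (replicates 1 and 2). Counted over every exon, the level of Pkd1 is no check of a deletion of part of the gene. ADPKD replicate 2 stood apart in the X-linked silencing RNA Xist, at 29.6 FPKM against 0.0121 to 0.0217 FPKM in the other libraries, and in the Y-linked gene Ddx3y, at 0.0482 FPKM against 8.46 to 15.1 FPKM. The ADPKD group therefore mixes libraries with male and female expression patterns. Fewer cells of a type and less RNA per cell cannot be told apart in bulk kidney.

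Collagen transcripts were more abundant in ADPKD than in WT kidney. The summed level of the 43 genes was 344 and 341 FPKM in WT replicates 1 and 2, and 709 and 745 FPKM in ADPKD replicates 1 and 2. The groups did not overlap, and the ratio of their means was 2.12. With median-of-ratios scaling between libraries the ratio was 1.82. Reads on collagen genes made up 0.280% ± 0.00403 of assigned reads in WT and 0.592% ± 0.0175 in ADPKD (SD, n = 2). The smallest two-sided p of an exact permutation test is 0.33 with 2 libraries per group, and sums and ratios are given without one.

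The mix of classes differed too, and the ADPKD libraries differed from each other. Type IV chains held 57.6% and 57.8% of the summed collagen FPKM in WT replicates 1 and 2, and 35.0% and 49.6% in ADPKD replicates 1 and 2. Fibrillar chains held 19.9% and 20.2% in WT, and 43.9% and 29.1% in ADPKD. The gain of the fibrillar share was thus larger in ADPKD replicate 1. Type VI chains held 5.52% and 5.51% in WT and 2.59% and 2.37% in ADPKD. The multiplexins Col15a1 and Col18a1 together held between 11.8% and 12.6% of collagen FPKM in every library.

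**Figure D1:**
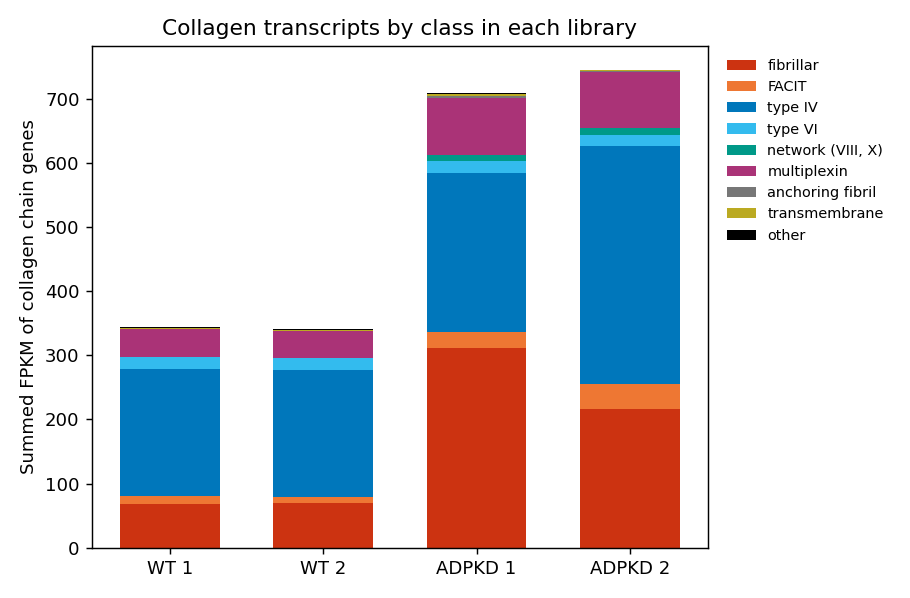
Summed FPKM of the collagen chain genes in each of the 4 libraries, stacked by class. The WT bars reach 344 and 341 FPKM and the ADPKD bars 709 and 745 FPKM, with the fibrillar segment largest in ADPKD replicate 1.

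Of the 26 tested genes 8 rose in ADPKD kidney and 1 fell. The 8 were Col12a1, Col1a1, Col1a2, Col3a1, Col5a1, Col5a2, Col8a1 and Col18a1, and the gene that fell was Col27a1. Calls are those of limma on log2(FPKM + 1) at an adjusted p below 0.05, and on this scale fold changes of low genes are understated. Over all 17001 genes tested 9.43% were called higher and 4.78% lower, against 30.8% and 3.85% of the tested members. All 9 called genes had a WT mean above 0.5 FPKM, so none of them entered the test through ADPKD alone. The median log2 fold change was 0.79 over the tested members and 0.18 over all genes tested. An unadjusted limma p below 0.05 was reached by 12 of the 26 members and by 5878 of the 17001 genes. The calls leaned on the number of libraries: without ADPKD replicate 1, without WT replicate 1 or without WT replicate 2 the genes called were Col1a1, Col1a2 and Col12a1. Without ADPKD replicate 2 limma called 0 members, with 17 at an unadjusted p below 0.05, and 0 genes in the whole table. The direction of the 9 called genes was the same in all those fits, but this was fixed in advance. For each of these genes both ADPKD libraries lay on the same side of both WT libraries, so leaving out a library could not reverse it.

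**Figure D2:**
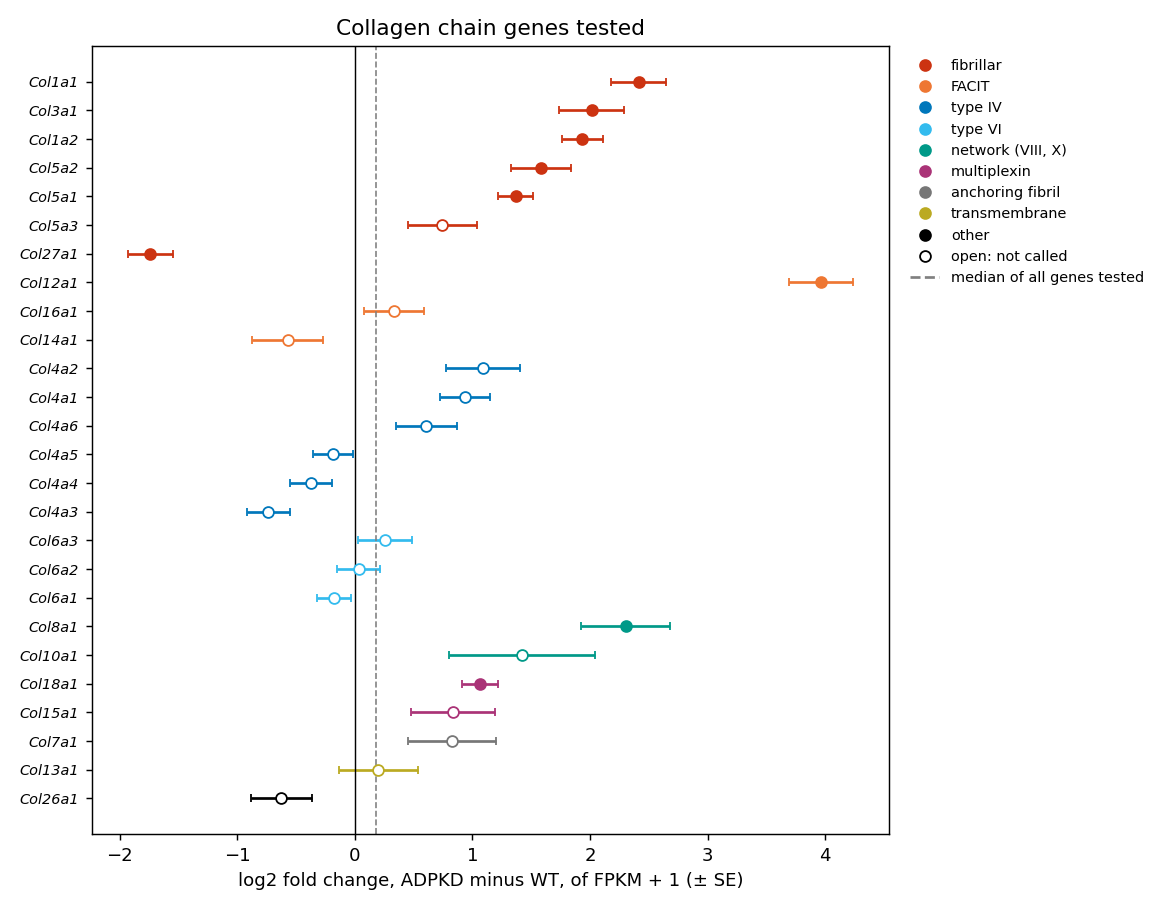
Log2 fold change of FPKM + 1 with its SE for the 26 collagen chain genes tested, ordered by class. Filled points were called, open points were not, and the dashed line is the median of all genes tested, 0.18. The fibrillar genes lie between 0.74 and 2.41 apart from Col27a1 at -1.74, and Col12a1 is the largest at 3.97.

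Type I collagen is the main protein of scar and bone, and both of its genes rose. Col1a1 (chromosome 11, 94936224 to 94953042, GRCm38) measured 20.95 and 21.1 FPKM in WT (replicates 1 and 2) against 142 and 95.5 FPKM in ADPKD (replicates 1 and 2). Both ADPKD libraries were far above WT, and replicate 1 was the higher. The log2 fold change came to 2.41 (SE 0.23, adjusted p = 0.0190 by limma). Col1a2 (chromosome 6, 4504814 to 4541544), its partner in the trimer, stood at 13.4 and 13.9 FPKM in WT against 61.9 and 48.7 FPKM in ADPKD. The groups were well apart, with a log2 fold change of 1.93 with SE 0.18 (adjusted p = 0.0182 by limma).

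Type III and type V collagen, which join type I in fibrils, rose with it. Col3a1 (chromosome 1, 45311538 to 45349706), whose chains form a trimer of their own, stood at 14.1 and 14.9 FPKM in WT against 79.7 and 47.8 FPKM in ADPKD. On the log2 scale this was a difference of 2.02 (SE 0.28, adjusted p = 0.0261 by limma), and as for type I the value of ADPKD replicate 1 was the higher. Type V chains sit inside type I fibrils and limit their width. Col5a1 (chromosome 2, 27886425 to 28039514) stood at 3.02 and 2.97 FPKM in WT against 9.30 and 9.31 FPKM in ADPKD, and its SE was the smallest of the called genes. This gave a log2 fold change of 1.37 with SE 0.15 (adjusted p = 0.0207 by limma). Col5a2 (chromosome 1, 45374321 to 45503282) stood at 2.26 and 3.78 FPKM in WT against 12.2 and 9.65 FPKM in ADPKD. The log2 fold change came to 1.59 (SE 0.26, adjusted p = 0.0318 by limma), and the call was lost with median-of-ratios scaling (limma adjusted p = 0.0505) and with the replicate number as a block (0.0549). The remaining type V gene, Col5a3, had 0.264 and 0.645 FPKM in WT and 1.97 and 0.964 FPKM in ADPKD and did not pass the test (limma adjusted p = 0.154). Col5a2 lies tail to tail with Col3a1, with 24614 bases between them.

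Col27a1 (chromosome 4, 63214004 to 63334991), a fibrillar chain best known from cartilage, went the other way. It stood at 14.1 and 11.4 FPKM in WT against 2.77 and 3.46 FPKM in ADPKD, and its WT level was close to that of Col1a2. On the log2 scale this was a difference of -1.74 (SE 0.19, adjusted p = 0.0212 by limma), a level 4.10-fold lower in the ratio of means. It was the only tested fibrillar gene with a negative fold change, and the fold change stayed between -2.03 and -1.60 under the other settings tried. The call was lost without any of the 4 libraries in turn (limma adjusted p between 0.0612 and 0.0755) and when no filter on low values was used (limma adjusted p = 0.0680).

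The other fibrillar chains were too low to test. Col11a1 and Col11a2 encode the type XI chains, which take the place of type V in cartilage fibrils. Col11a1 had 3 and 5 reads in WT replicates 1 and 2 and 84 and 197 reads in ADPKD replicates 1 and 2, which corresponds to 0.0128, 0.0218, 0.355 and 0.775 FPKM. Col11a2 stood at 0.206 and 0.162 FPKM in WT against 0.282 and 0.423 FPKM in ADPKD. Col24a1 reached at most 0.254 FPKM, and Col2a1, the main cartilage collagen, at most 0.0217 FPKM in any library. Of 5 cartilage genes listed, Comp, Matn1, Matn3 and Hapln1 were under the filter, and Sox9, which other tissues also express, rose from 0.566 and 0.296 FPKM in WT to 8.08 and 7.47 FPKM in ADPKD (adjusted p = 0.0164 by limma). The WT mean of Sox9 was 0.431 FPKM, so it passed the filter through the ADPKD libraries.

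Upstream sequence is shown for the called genes whose 250 bases before the RefSeq start (GRCm38.p6) were available and overlap no annotated exon. Col12a1, Col1a1 and Col5a2 had no promoter entry, and the windows of Col1a2 and Col18a1 overlap exons. Capitals mark matches on either strand. The motifs searched were the CCAAT box, spelled by its name, the GC box with the letters GGGCGG, the TATA box with the letters TATAAA, and the AP-1 motif with the letters TGANTCA, and no matches overlap in these windows. The windows are chr1:45311288-45311537 on the plus strand for Col3a1, chr2:27886175-27886424 on the plus strand for Col5a1, chr16:57754738-57754987 on the minus strand for Col8a1 and chr4:63215162-63215411 on the plus strand for Col27a1, each written 5′ to 3′ along the gene. The window of Col27a1 lies within the span that the Ensembl annotation gives for the gene.
Col3a1: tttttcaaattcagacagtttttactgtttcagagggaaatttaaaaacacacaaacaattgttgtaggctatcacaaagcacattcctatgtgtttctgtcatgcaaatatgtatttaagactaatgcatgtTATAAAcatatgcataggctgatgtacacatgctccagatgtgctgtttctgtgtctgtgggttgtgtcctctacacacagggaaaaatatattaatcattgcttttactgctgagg
Col5a1: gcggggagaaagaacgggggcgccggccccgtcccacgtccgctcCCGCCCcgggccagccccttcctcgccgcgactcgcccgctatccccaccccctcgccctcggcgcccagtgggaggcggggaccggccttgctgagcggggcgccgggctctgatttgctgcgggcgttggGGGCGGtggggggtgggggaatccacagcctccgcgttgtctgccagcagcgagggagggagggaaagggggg
Col8a1: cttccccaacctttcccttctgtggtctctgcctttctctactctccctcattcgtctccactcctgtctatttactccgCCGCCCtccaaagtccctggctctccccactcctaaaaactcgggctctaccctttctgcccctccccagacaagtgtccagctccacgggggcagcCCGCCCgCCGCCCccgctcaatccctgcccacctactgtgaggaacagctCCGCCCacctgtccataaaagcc
Col27a1: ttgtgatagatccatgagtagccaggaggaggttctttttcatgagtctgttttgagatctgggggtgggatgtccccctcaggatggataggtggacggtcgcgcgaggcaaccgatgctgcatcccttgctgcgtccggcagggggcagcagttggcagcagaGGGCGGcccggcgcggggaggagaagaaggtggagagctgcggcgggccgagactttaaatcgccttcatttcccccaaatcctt
Col3a1 carries a TATA box match and no GC box match, whereas Col5a1 has 2 GC box matches, Col8a1 has 4 and Col27a1 has 1. The RefSeq table held 36 windows of this length for 34 of the 43 members, and 17 of them overlap annotated exons. A GC box match was present in 22 of the 36 windows (61.1%), against 32.7% of all 32851 promoters in the table, and in 12 of the 19 windows without exons. A CCAAT match was present in 33.3% against 33.85%, a TATA match in 13.9% against 12.4%, and an AP-1 match in 2.78% against 6.75%. These are counts of letters and show no binding.

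Col12a1 (chromosome 9, 79598991 to 79718831), a FACIT chain that binds the surface of type I fibrils, had the largest log2 fold change of FPKM + 1 among the tested members. The ratio of means was larger for Col10a1 and Col17a1, which had 2 reads or fewer in each WT library. It stood at 0.654 and 0.471 FPKM in WT against 18.3 and 29.8 FPKM in ADPKD, from 183 and 129 reads to 5168 and 9050 reads. A chain that ranked low in WT kidney was thus above Col15a1 and Col4a3 in the ADPKD means, 24.0 against 16.5 and 19.4 FPKM, although for both pairs the values of single libraries overlap. This gave a log2 fold change of 3.97 with SE 0.27 (adjusted p = 0.0164 by limma), and the ratio of means was 42.8. Unlike the type I and III chains, Col12a1 was higher in ADPKD replicate 2.

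The close relative Col14a1, another FACIT chain of type I fibrils, did not pass the test. Col14a1 stood at 8.64 and 5.87 FPKM in WT against 3.40 and 5.83 FPKM in ADPKD. The log2 fold change came to -0.57 (SE 0.30, adjusted p = 0.257 by limma). Col16a1 stood at 1.76 and 3.21 FPKM in WT against 3.38 and 3.20 FPKM in ADPKD, and its groups overlap (limma adjusted p = 0.414). The other FACIT members were under the filter: Col20a1 at 0.292 to 0.551 FPKM, Col9a3 at 0.0423 to 0.247 FPKM, and Col9a2, Col19a1 and Col22a1 at no more than 0.0696 FPKM in any library.

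By the distance of their log2 values over the 4 libraries, the 5 other genes whose pattern was most like that of Col12a1 were Gm8062, Cd14, Hp, Ccl6 and Ms4a6d, at distances of 0.11 to 0.44 on the log2 scale. Cd14, a receptor of monocytes, stood at 3.52 and 3.59 FPKM in WT against 50.1 and 104 FPKM in ADPKD. Hp, which encodes the acute phase protein haptoglobin, stood at 0.406 and 0.657 FPKM in WT against 19.5 and 33.9 FPKM in ADPKD. Gm8062 is annotated as a processed pseudogene. Since multi-mapping reads were included in the counting, its own level is uncertain. With 4 libraries many genes share such a pattern. The WT means of Gm8062 and Ms4a6d were 0.370 and 0.174 FPKM, so these genes passed the filter through the ADPKD libraries.

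Col18a1 (chromosome 10, 77052178 to 77166548), a heparan sulfate-bearing chain of basement membranes, was already abundant in WT. Col18a1 stood at 35.7 and 32.2 FPKM in WT against 67.5 and 76.8 FPKM in ADPKD. On the log2 scale this was a difference of 1.06 (SE 0.15, adjusted p = 0.0281 by limma), and the call was lost with median-of-ratios scaling (limma adjusted p = 0.0799). Col15a1, the other multiplexin, is a chain of basement membranes next to interstitial matrix. It stood at 7.26 and 9.57 FPKM in WT against 21.95 and 11.1 FPKM in ADPKD, and did not pass the test (log2 difference 0.83, SE 0.36, adjusted p = 0.180 by limma).

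Col8a1 (chromosome 16, 57624258 to 57754737), a short network-forming chain of vessel walls, stood at 0.951 and 0.355 FPKM in WT against 4.90 and 9.92 FPKM in ADPKD. This gave a log2 fold change of 2.30 with SE 0.38 (adjusted p = 0.0322 by limma). The call was lost with quantile normalization (limma adjusted p = 0.0526), with median-of-ratios scaling (0.0602) and with the replicate number as a block (0.0579). Col8a2, its partner chain, was under the filter, with 0.121 and 0.111 FPKM in WT and 0.720 and 0.714 FPKM in ADPKD.

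**Figure D3:**
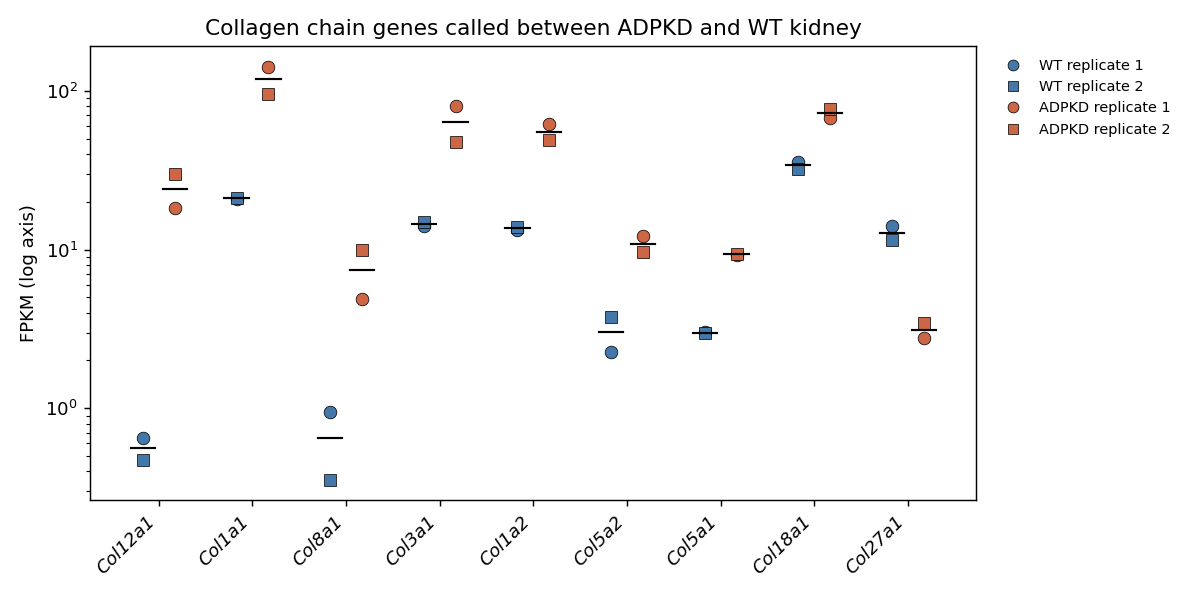
FPKM (log axis) of the 9 called collagen chain genes in each library, with group means as bars, ordered by fold change. ADPKD replicate 1 is the higher of the ADPKD libraries for Col1a1, Col1a2, Col3a1 and Col5a2, and replicate 2 for Col12a1, Col8a1, Col18a1 and, by a narrow margin, Col5a1.

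Of the 6 type IV genes of basement membranes limma called 0, with 3 at an unadjusted p below 0.05 (all genes tested, 5878 of 17001). With limma-voom on recovered reads Col4a1 was called higher and Col4a3 lower. Col4a1 (chromosome 8, 11198423 to 11312826), the most abundant collagen gene in both groups, stood at 67.6 and 71.2 FPKM in WT against 113 and 158 FPKM in ADPKD. The change on the log2 scale was 0.94 (SE 0.21, adjusted p = 0.0555 by limma, and 0.0435 after quantile normalization). Col4a2 (chromosome 8, 11312805 to 11449287) stood at 49.5 and 57.4 FPKM in WT against 85.8 and 153 FPKM in ADPKD, with a log2 fold change of 1.09 with SE 0.31 (adjusted p = 0.0880 by limma). For both genes the ADPKD libraries lay above both WT libraries, with the higher value in replicate 2.

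The 3 genes of the glomerular network had negative fold changes, none of them called. Col4a3 (chromosome 1, 82586921 to 82722059) stood at 34.6 and 30.9 FPKM in WT against 16.9 and 21.9 FPKM in ADPKD. The log2 fold change came to -0.73 (SE 0.19, adjusted p = 0.0692 by limma). Col4a4 (chromosome 1, 82448423 to 82586849) stood at 32.7 and 27.4 FPKM in WT against 21.0 and 24.9 FPKM in ADPKD, with a log2 fold change of -0.37 with SE 0.17 (adjusted p = 0.212 by limma). Col4a5, on the X chromosome, stood at 12.4 and 9.99 FPKM in WT against 9.24 and 10.2 FPKM in ADPKD, and its groups overlap. Its X-linked neighbour Col4a6 stood at 1.30 and 0.530 FPKM in WT against 1.90 and 1.82 FPKM in ADPKD (limma adjusted p = 0.177).

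The ratio of Col4a3 to Col4a1 within a library, which does not depend on scaling between libraries, was 0.512 and 0.433 in WT and 0.149 and 0.139 in ADPKD. Among the 8 ratios computed this one differed most between the group means in relative terms. Podocytes make the chains of the glomerular network, and 8 podocyte markers summed to 96.6 and 79.6 FPKM in WT and to 41.0 and 85.9 FPKM in ADPKD. Limma called 0 of the 8, with 3 at an unadjusted p below 0.05 (all genes tested, 5878 of 17001), and limma-voom also called 0. The smallest adjusted p was that of Cdkn1c, 0.0683 by limma. The ADPKD libraries lay below both WT libraries in 3 of the 8 and above in 2, against 21% and 43.6% of all genes tested. In ADPKD replicate 2 the podocyte sum was within the WT values while Col4a3 was below them. The part of podocyte content in the level of Col4a3 was not tested.

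**Figure D4:**
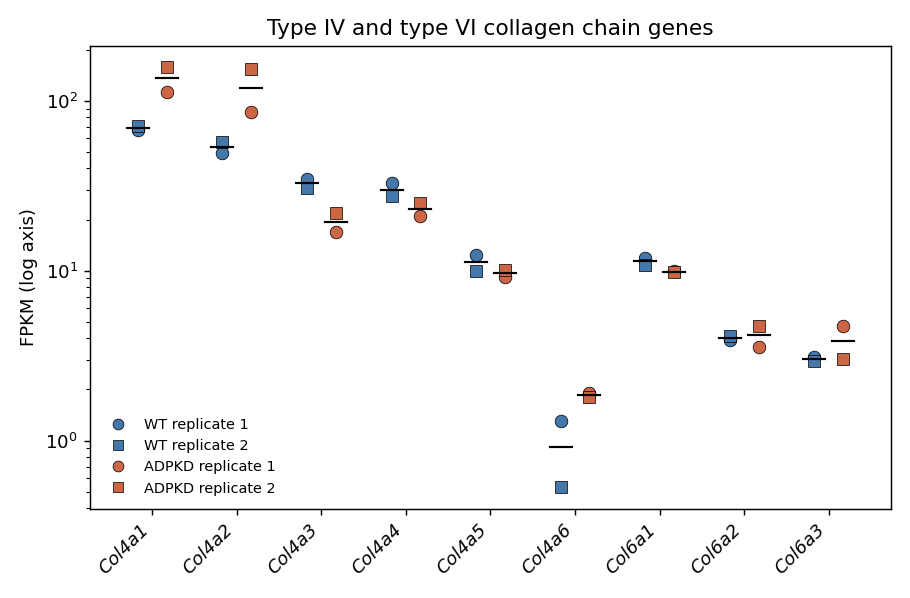
FPKM (log axis) of type IV and type VI collagen chain genes in each library, with group means as bars. Col4a1 and Col4a2 are higher in both ADPKD libraries, Col4a3 and Col4a4 are lower in both, and the type VI genes differ little.

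Type IV genes are arranged as head-to-head pairs, and the members of a pair had fold changes of the same sign in 2 of the 3 pairs. Col4a1 and Col4a2 overlap by 22 bases at their starts and had log2 fold changes of 0.94 and 1.09. Col4a4 and Col4a3 are separated by 71 bases and had values of -0.37 and -0.73. Col4a6 and Col4a5 lie 1308 bases apart and had values of 0.61 and -0.19, neither of them called. The stretch that separates the starts of Col4a4 and Col4a3 is shown because both genes must be read outward from it (chr1:82586850-82586920, GRCm38.p6, minus strand, the strand of Col4a4), and it holds none of the 4 motifs.
Col4a4 to Col4a3: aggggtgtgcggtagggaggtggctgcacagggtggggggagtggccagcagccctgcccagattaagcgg

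Type VI collagen, the beaded filament around cells, was nearly level in the FPKM as deposited. Col6a1 stood at 11.9 and 10.8 FPKM in WT against 9.93 and 9.85 FPKM in ADPKD (log2 difference -0.18, SE 0.15, adjusted p = 0.436 by limma). Col6a2 stood at 3.92 and 4.10 FPKM in WT against 3.58 and 4.73 FPKM in ADPKD, and Col6a3 at 3.11 and 2.95 FPKM in WT against 4.73 and 3.03 FPKM in ADPKD. On the deposited FPKM limma called 0 of the 3, with 0 at an unadjusted p below 0.05, and limma-voom called 0 as well. The summed level of these 3 genes was 18.4 ± 0.766 FPKM in WT and 17.9 ± 0.443 FPKM in ADPKD (SD, n = 2), in the same libraries in which Col1a1, Col1a2 and Col3a1 together went from 49.2 ± 1.08 to 238 ± 64.9 FPKM. Col6a6, a low paralog, had 6 and 142 reads in WT replicates 1 and 2 and 2 and 0 reads in ADPKD. Its level thus rests on WT replicate 2, and 0 reads allow up to 0.0164 FPKM there. Col6a4 and Col6a5 did not exceed 0.120 FPKM.

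For 3 other low chains the ADPKD mean rests largely on replicate 1. Col10a1, a network chain of growth plate cartilage, had 1 and 0 reads in WT and 235 and 28 reads in ADPKD replicates 1 and 2, or 4.04 and 0.448 FPKM in ADPKD. The 0 reads in WT replicate 2 allow up to 0.0532 FPKM. Col10a1 did not pass the test (log2 difference 1.42, SE 0.62, adjusted p = 0.188 by limma), and it passed the filter through the ADPKD libraries. Col17a1, a transmembrane chain of hemidesmosomes, had 2 and 1 reads in WT and 178 and 10 reads in ADPKD, and was under the filter. Col7a1, whose product anchors the basement membrane of skin, stood at 0.481 and 0.551 FPKM in WT against 2.82 and 0.891 FPKM in ADPKD (limma adjusted p = 0.202). In these 3 genes, grouped after their values were seen, ADPKD replicate 1 was at least 3 times as high as replicate 2. Col11a1 and Col9a3 had more reads in ADPKD replicate 2 instead, 197 against 84 and 19 against 13.

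The remaining members were low or overlapped between groups. Col26a1 stood at 1.51 and 1.91 FPKM in WT against 1.13 and 0.441 FPKM in ADPKD (limma adjusted p = 0.173). The transmembrane chain Col13a1 stood at 0.319 and 0.483 FPKM in WT against 0.199 and 1.15 FPKM in ADPKD, and Col23a1 at 0.149 to 0.610 FPKM. Col25a1 and Col28a1 did not exceed 0.123 FPKM. Of the 17 members under the filter, 6 had 12 reads or fewer over all 4 libraries. Among the 26 tested members the ADPKD libraries lay above both WT libraries in 15 (57.7%) and below in 6 (23.1%), against 43.6% and 21% of all genes tested.

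Within a library, the balance between chains of type I also differed. The ratio of Col1a1 to Col1a2 was 1.57 and 1.52 in WT and 2.30 and 1.96 in ADPKD, with no overlap between the groups. The trimer contains more Col1a1 than Col1a2 chains. FPKM divides by the length of all annotated exons, 6563 bases for Col1a1 and 12426 bases for Col1a2. The size of the ratio therefore depends on that annotation, whereas its fold difference between libraries does not. The ratio of Col4a3 to Col4a4 was 1.06 and 1.13 in WT and 0.804 and 0.880 in ADPKD, also without overlap. The mean ratio of Col1a1 to Col3a1 was 1.45 ± 0.046 in WT and 1.89 ± 0.152 in ADPKD (SD, n = 2). The ratios of Col4a1 to Col4a2 (1.37 and 1.24 in WT, 1.32 and 1.03 in ADPKD), of Col6a1 to Col6a2 (3.04 and 2.63 in WT, 2.77 and 2.08 in ADPKD) and of Col5a2 to Col5a1 (0.748 and 1.27 in WT, 1.31 and 1.04 in ADPKD) overlapped between groups.

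**Figure D5:**
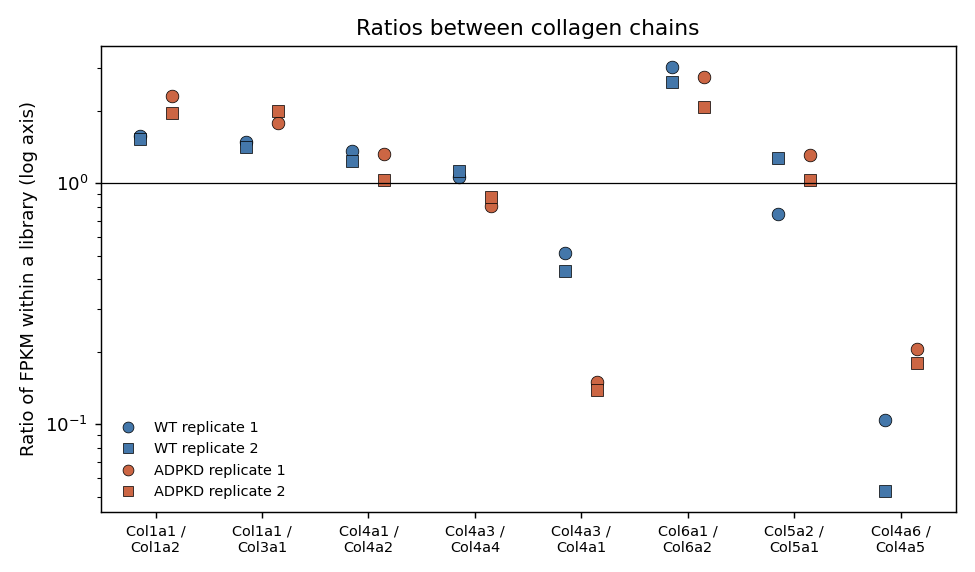
Ratio of FPKM between chains within each library (log axis). The ratio of Col4a3 to Col4a1 is 0.512 and 0.433 in WT and 0.149 and 0.139 in ADPKD, and that of Col1a1 to Col1a2 is higher in both ADPKD libraries.

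Of 20 tested genes that modify and fold collagen chains 2 rose, Colgalt1 and Fkbp10, and 1 fell, P3h2, against 9.43% higher and 4.78% lower over all genes tested, and the median log2 fold change was 0.26. Fkbp10, a chaperone of type I procollagen, stood at 3.13 and 3.69 FPKM in WT against 14.2 and 10.6 FPKM in ADPKD (log2 difference 1.59, SE 0.20, adjusted p = 0.0245 by limma). Colgalt1, which attaches galactose to hydroxylysine, stood at 6.53 and 7.92 FPKM in WT against 20.5 and 19.2 FPKM in ADPKD (log2 difference 1.35, SE 0.16, adjusted p = 0.0230 by limma). Serpinh1, the collagen chaperone HSP47, stood at 83.8 and 77.3 FPKM in WT against 102 and 100.5 FPKM in ADPKD and did not pass the test (limma adjusted p = 0.184). Its groups do not overlap, and its log2 fold change was 0.33.

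Of 14 tested genes that act on collagen after secretion, in propeptide removal and fibril assembly, 8 rose (all genes tested, 9.43%), with a median log2 fold change of 1.31. Adamts2, which removes the amino-terminal propeptide, stood at 1.24 and 0.928 FPKM in WT against 9.56 and 7.39 FPKM in ADPKD (log2 difference 2.18, SE 0.20, adjusted p = 0.0183 by limma). Fn1, the fibronectin on which fibrils assemble, stood at 5.26 and 5.07 FPKM in WT against 27.7 and 24.6 FPKM in ADPKD (log2 difference 2.14, SE 0.15, adjusted p = 0.0164 by limma). Of 7 cross-linking genes 3 rose, Lox, Loxl2 and Pxdn (all genes tested, 9.43%). Lox stood at 2.21 and 1.37 FPKM in WT against 26.1 and 31.4 FPKM in ADPKD, and Loxl2 at 3.49 and 3.35 FPKM in WT against 14.96 and 18.8 FPKM in ADPKD. Pxdn, which cross-links type IV collagen, had 2.71 and 2.22 FPKM in WT against 7.30 and 6.55 FPKM in ADPKD (adjusted p = 0.0278 by limma).

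Of 11 tested genes of collagen breakdown and its inhibitors 6 rose and 1 fell, the latter being Pepd, which splits dipeptides that end in proline. For this list and the next ones, the shares over all genes tested were 9.43% higher and 4.78% lower. Mmp14, a collagenase of the cell surface, and Timp1, an inhibitor of such enzymes, had the smallest adjusted p, 0.0152 and 0.00985 by limma. Timp1 averaged 0.494 FPKM in WT and passed the filter through the ADPKD libraries. The number that rose was 3 with median-of-ratios scaling. Of 8 tested collagen receptors 4 rose, the integrin chain Itgb1, Ddr1, Adgrg1 and Adgrg6, but 1 with median-of-ratios scaling and 0 without any of the 4 libraries in turn. Adgrg1 averaged 74.5 FPKM in WT and 244 FPKM in ADPKD, and Itgb1 at 58.7 and 56.4 FPKM in WT against 131 and 148 FPKM in ADPKD. Of 11 other basement membrane genes 4 rose, or 2 with median-of-ratios scaling, with a median log2 fold change of 0.67. Among them Agrn, a heparan sulfate proteoglycan, stood at 18.3 and 20.2 FPKM in WT against 70.3 and 74.5 FPKM in ADPKD, and the laminin chain Lama5 averaged 13.8 FPKM in WT and 45.8 FPKM in ADPKD.

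Of 13 genes of the TGF-beta signal, which drives collagen transcription in fibroblasts, 10 rose, with a median log2 fold change of 1.44. Tgfb1 stood at 3.91 and 4.63 FPKM in WT against 12.2 and 14.4 FPKM in ADPKD (log2 difference 1.44, SE 0.17, adjusted p = 0.0229 by limma). Ccn2, a matrix protein induced by TGF-beta, stood at 18.6 and 34.0 FPKM in WT against 172 and 213 FPKM in ADPKD. Ltbp2, which belongs to the family of latent TGF-beta binding proteins, went from 0.0399 and 0.0339 FPKM to 5.62 and 6.06 FPKM. Over all these lists, each gene counted once, 37 of 84 tested genes rose and 2 fell, against 9.43% and 4.78% of all genes tested. Of those that rose, Ltbp2, Mmp3, Adgrg6 and Timp1 had WT means of 0.0369, 0.0610, 0.393 and 0.494 FPKM. These are under 0.5 FPKM, so the 4 genes passed the filter through the ADPKD libraries. The number that rose was 15 without ADPKD replicate 1, 14 without WT replicate 1, 8 without WT replicate 2 and 0 without ADPKD replicate 2.

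Fibroblasts and pericytes make collagen. Of 10 tested markers of these cells 3 rose, Tagln, Acta2 and Dcn (all genes tested, 9.43%), and the summed level of the 12 genes was 63.1 and 53.7 FPKM in WT and 164 and 177 FPKM in ADPKD. Acta2, the smooth muscle actin of myofibroblasts, stood at 17.4 and 11.6 FPKM in WT against 95.9 and 88.5 FPKM in ADPKD (log2 difference 2.61, SE 0.23, adjusted p = 0.0177 by limma). It was the largest part of the sum in both ADPKD libraries. Among the 10 tested markers the ADPKD libraries lay above both WT libraries in 6 and below in 1, against 43.6% and 21% of all genes tested. The 1 below was Rgs5, at 10.3 and 8.22 FPKM in WT against 7.37 and 6.90 FPKM in ADPKD, not called. Pdgfra stood at 2.53 and 3.12 FPKM in WT against 3.55 and 6.33 FPKM in ADPKD and Pdgfrb at 9.29 and 7.61 FPKM in WT against 13.6 and 19.1 FPKM in ADPKD, neither of them called, and these 2 were chosen after their values were seen. Lum, a fibroblast proteoglycan, averaged 0.795 FPKM in WT and 0.599 FPKM in ADPKD, with overlapping groups, and those of Cspg4 and Tcf21 overlapped too. Lum and Dcn are also in the list of fibril assembly genes. None of the 12 was at 0 in any library. The part of fibroblast number in the collagen levels was not tested.

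Of 8 macrophage and monocyte markers, among them Lyz2 and Cd14, 7 rose, or 2 with median-of-ratios scaling, against 9.43% of all genes tested. Their sum was 53.4 and 88.6 FPKM in WT and 555 and 1241 FPKM in ADPKD, with the higher value in replicate 2. Of 8 endothelial markers 2 fell, Tek and Egfl7 (all genes tested, 4.78%), and the sum was 159 and 193 FPKM in WT and 55.0 and 109 FPKM in ADPKD. Of 8 proximal tubule markers 6 fell, Lrp2 and Cubn among them, or 3 after quantile normalization, with a sum of 3641 and 2776 FPKM in WT and 883 and 627 FPKM in ADPKD. Of 5 tested principal cell markers limma called 0, with 3 at an unadjusted p below 0.05 (all genes tested, 5878 of 17001), and limma-voom called 0. Their sum was between 586 and 748 FPKM in all libraries. Of 5 cell cycle genes limma called 0, with 0 at an unadjusted p below 0.05, and limma-voom called 0. Over all cell lists, each gene counted once, 11 of 53 tested genes rose and 8 fell, against 9.43% and 4.78% of all genes tested. Of those that rose, the macrophage marker Itgam and the cartilage marker Sox9 had WT means of 0.121 and 0.431 FPKM. Both passed the filter through the ADPKD libraries. Leaving out ADPKD replicate 1 gave 7 and 2, leaving out either WT library gave 5 and 0, and leaving out ADPKD replicate 2 gave 0 and 0. The part of these cell types in the collagen levels was not tested.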

How the data were processed

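RNA was measured by RNA-seq of whole mouse kidney in 2 WT and 2 ADPKD libraries. Per the labels' protocols, total RNA was isolated with TRIzol and selected with oligo dT. The FPKM per gene were used as the authors deposited them. The submitters' processing notes name Bowtie2, DESeq2 and mm10 without roles. Gene positions and exon lengths (bases) are from a second deposited table, made with featureCounts 1.6.0 on Ensembl release 98 of GRCm38 per the file headers. It counted multi-mapping reads, with no strand or paired-end option, so antisense and overlapping genes share reads. Of the exon length of the members, 0% to 6.07% lies under exons of other genes. Its 16 per-sample columns carry names that match no label and were not used. Names of 25 rows were calendar dates and were left out, which left 32151 genes. Multiplied by exon length, 100% of FPKM values were whole reads within 0.01 reads, which gave depths of 18001308 to 19955120 reads; 1 read on 1 kb was worth 0.0501 to 0.0556 FPKM. For a gene at 0 the limit is 3 reads, for counting error only. Col9a1, in the position table, was not listed among the FPKM values.

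The 17001 genes with a mean of at least 0.5 FPKM were tested as log2(FPKM + 1) with limma 3.58.1 (R 4.3.3) and a mean-variance trend (residual degrees of freedom 2, prior 2.55). Benjamini-Hochberg adjustment ran over all genes tested, and genes were called below 0.05. The procedure was tested on simulated data. The members, classes and gene lists were chosen with earlier results of these data known, so no list was tested. The rule named all members, the 2 genes of each list with the smallest adjusted p, Lox, Serpinh1, Tgfb1, Ccn2 and Pkd1, and the 5 genes nearest to Col12a1. Of these some genes are not reported here, and the genes of the principal cell and cell cycle lists are given as counts. Other list genes are named as parts of a count or were chosen after their values were seen. Promoters are from RefSeq (GRCm38.p6) and coding sequences from GENCODE M21. Alternatives changed the pseudocount, filter, scaling, replicate block, test and libraries.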

Additional observations from a re-analysis of the deposited data

How the results depend on the processing

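The 9 called collagen genes kept their direction under every setting tried. Where a library was left out this was fixed in advance, since the groups do not overlap for these genes. Col12a1, Col1a1, Col1a2, Col3a1, Col5a1 and Col27a1 were called in every fit of all 4 libraries that used a filter. Of all genes, 1604 rose and 813 fell; the numbers were 741 and 876 with median-of-ratios scaling, 999 and 1102 after quantile normalization and 1 and 0 without a filter, where 7251 genes had an unadjusted p below 0.05. The higher calls were 1604 of 2417 as deposited and 999 of 2101 after quantile normalization. Leaving out 1 library gave 0 to 435 and 0 to 250 genes, and 0 to 3 and 0 collagen genes. Collagen calls were 8 and 1, and 5 with median-of-ratios scaling, 6 with the replicate block (without Col5a2 and Col8a1), 0 and 0 without a filter and 9 and 2 with limma-voom on recovered reads. Partner list genes called higher and lower were 37 and 2, 26 and 2 with median-of-ratios scaling, 43 and 3 with voom, 37 and 1 with the block, 0 and 0 without a filter, and 0 to 15 and 0 when 1 library was left out. Cell type markers called were 11 and 8, 6 and 7 with median-of-ratios scaling, 9 and 5 after quantile normalization, 0 and 0 without a filter, and 0 to 7 and 0 to 2 when 1 library was left out. The summed collagen FPKM was 371 in WT and 675 in ADPKD with median-of-ratios scaling, which moved the median over all genes from 0.18 to 0.00845 (log2). Replicate numbers do not pair the samples by the labels: same-numbered deviations from the group means correlated at 0.19 over 2 pairs, and the replicate block called 1220 genes higher and 625 lower. The log2 fold change of Col6a2 was -0.25 after quantile normalization, -0.15 with median-of-ratios scaling and -0.13 without ADPKD replicate 2, against 0.03 as reported. That of Col6a3 was -0.00858 after quantile normalization, and that of Pkd1 was -0.14 and -0.0552 with quantile normalization and median-of-ratios scaling. The cause of these shifts was not tested. Depth limits the 17 untested members, which held 4 to 289 reads each.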
